A study of Mus musculus with 40 samples.

Results

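Multipotent progenitors (MPPs) were compared with haematopoietic stem cells (HSCs) from the bone marrow of adult mice labelled HIRA KO. The comparison rests on 8 of the 40 RNA sequencing libraries of the series, 4 of KO MPPs and 4 of KO HSCs, and these were chosen from the labels alone, as total cells not sorted by a division marker. All mice were of the C57BL/6 strain. Hira was deleted conditionally with 2 intraperitoneal doses of 20 µg poly(I:C), a synthetic RNA duplex known to induce interferon, given with a day left out in between. Cells were collected 1 week after the first dose, and the sort took 2500 cells of a type, in Trizol. The driver named for this series is Mx1-Cre, an interferon-responsive Cre that also acts in other blood cells and outside the blood, combined with Hira fl/fl. The labels spell out the full genotype, Mx1-Cre with Hira fl/fl, Rosa26-M2rtTA and TetOP-H2B-GFP, for a second cohort. That cohort received doxycycline at 2 mg/ml for 6 weeks, sweetened with sucrose at 10 mg/ml, then the same 2 doses of poly(I:C), and its cells were sorted by H2B-GFP level 15 days after the last dose and 17 days after doxycycline had stopped. From it 6 KO libraries of GFP-high cells and 6 of GFP-low cells were used here, 3 of each cell type, and 8 libraries of WT HSCs and MPPs from the first cohort served for comparison. The alleles carried by the WT mice, the surface markers of the sort, and the exact ages are not given in the sources used here, and no separate treatment is stated for WT mice.

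HSCs renew themselves for life and give rise to all blood cells. MPPs follow them directly, keep the potential for all blood lineages but lose long-term self-renewal, and begin to transcribe genes of the lymphoid and the granulocyte and monocyte lineages. Part of the HSC pool carries a programme of megakaryocyte and platelet genes. HIRA is known for depositing the replacement histone H3.3 independently of DNA synthesis.

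Values are FPKM, the authors' fragments scaled to gene length and library depth, rescaled over the 8 libraries, and are given as mean ± SD of 4 libraries or library by library, in the order of the replicate numbers. Differences are MPP minus HSC on the scale of log2(FPKM + 1), given ± SE, with adjusted p values from limma and the Benjamini-Hochberg method. A gene was called at an adjusted p under 0.05. Because HSCs and MPPs were deposited in separate tables, each scaled on its own, cell type and table cannot be told apart. The 8 factors that put them on a common scale lay between 0.996 and 1.01. In bulk libraries, fewer cells of a type and less RNA per cell cannot be told apart either.

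The whole reads recovered from the FPKM steps came to 22073116 to 27728094 in KO HSCs and 28184168 to 30027936 in KO MPPs. The first principal component carried 43.9% of the variance and separated the cell types. The second carried 18.8% and set the KO MPP 4 library apart, at 41.1 against 0 and below for the other 3 KO MPP libraries. KO MPP 4 also had the lowest mean correlation with its own group, 0.963 against 0.973 to 0.974. Counts over all genes are given with and without it, and list counts where leaving it out moved them by over 1.5 times. Hira itself, on chromosome 16 at chr16:18877037-18970309 (GRCm38), did not tell the cell types apart. It was read at 1.32, 1.12, 0.723 and 1.29 FPKM in the 4 KO HSC libraries and 1.45, 1.34, 1.16 and 0.7998 FPKM in the 4 KO MPP libraries, and the groups overlapped. The difference was 0.05 ± 0.17 (adjusted p = 0.911). These gene-level values, from 120 to 279 reads a library, cannot show whether the floxed part of the gene was missing, so the libraries are called by their label.

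The markers of the sorted populations were examined next. Among the HSC markers called lower in KO MPPs were Slamf1, Tek, Ctnnal1 and Vwf. Of these, Slamf1, Ctnnal1 and Vwf passed the filter through KO HSCs alone, which fixed their direction. Slamf1, the SLAM receptor CD150 that defines mouse HSCs, stood at 7.03, 5.94, 5.85 and 5.299 FPKM in the 4 KO HSC libraries and 0.394, 0.474, 0.559 and 0.122 FPKM in the 4 KO MPP libraries. No KO MPP library reached the lowest KO HSC library. Hlf, a transcription factor of HSCs, went the other way, at 19.8, 24.1, 25.03 and 35.2 FPKM in the 4 KO HSC libraries and 45.5, 36.4, 41.1 and 43.7 FPKM in the 4 KO MPP libraries. It was higher in KO MPPs by 0.68 ± 0.16 (adjusted p = 0.0194), without overlap. The call ended without KO HSC 1, 2 or 3 or without KO MPP 1 (adjusted p up to 0.0619 by limma). Procr, which encodes the endothelial protein C receptor, had means of 8.24 ± 1.66 FPKM in KO HSCs and 12.5 ± 6.54 FPKM in KO MPPs and was not called (95% interval -0.15 to 1.06). Its highest value, 21.97 FPKM, belonged to KO MPP 4. Mecom, Fgd5 and Robo4 were not called, with intervals of -0.55 to 0.08, -0.48 to 0.38 and -0.31 to 0.35. Among the MPP markers called higher in KO MPPs were Flt3, Cd48, Cd34, Cebpa, Mpo and Dntt. Mki67, a gene of cycling cells, was not called (adjusted p = 0.0729, though it was called lower by voom, adjusted p = 0.0306, and by limma without KO HSC 2) and stood at 3.51 ± 0.806 FPKM in KO HSCs and 2.09 ± 0.419 FPKM in KO MPPs. The libraries labelled MPP thus held more Flt3, Cd34 and Cd48 RNA and less Tek RNA than those labelled HSC, while Procr, Mecom, Fgd5 and Robo4 were not called.

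Across the transcriptome 13835 genes were tested and 1328 (9.6%) were called. In KO MPPs 725 (5.24%) were higher and 603 (4.36%) lower. List counts below are to be read against these shares, and a count near them is no result about its list. At least 2-fold differences on the log2 scale were found in 269 genes on the higher side (1.94%) and 195 on the lower side (1.41%). Groups did not overlap in 2191 genes (15.8%). The median difference over all tested genes was -0.0048. Of the called genes 637 higher and 531 lower ones were protein-coding. The filter admitted 69 genes through KO HSCs alone and 95 through KO MPPs alone, and such genes had to differ. Among the genes named here these were Slamf1, Ctnnal1, Vwf, Gp1bb, Sdpr, Il1b and Col1a2 through KO HSCs, and Hdc, Ighj1, Ighv1-76 and Mir3060 through KO MPPs. Among genes at 1 FPKM or more in all 8 libraries, 991 were called. Without KO MPP 4, 915 genes were higher and 920 lower, and 1197 of the 1328 genes were called again. Without KO HSC 1, 839 genes were called.

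**Figure D1:**
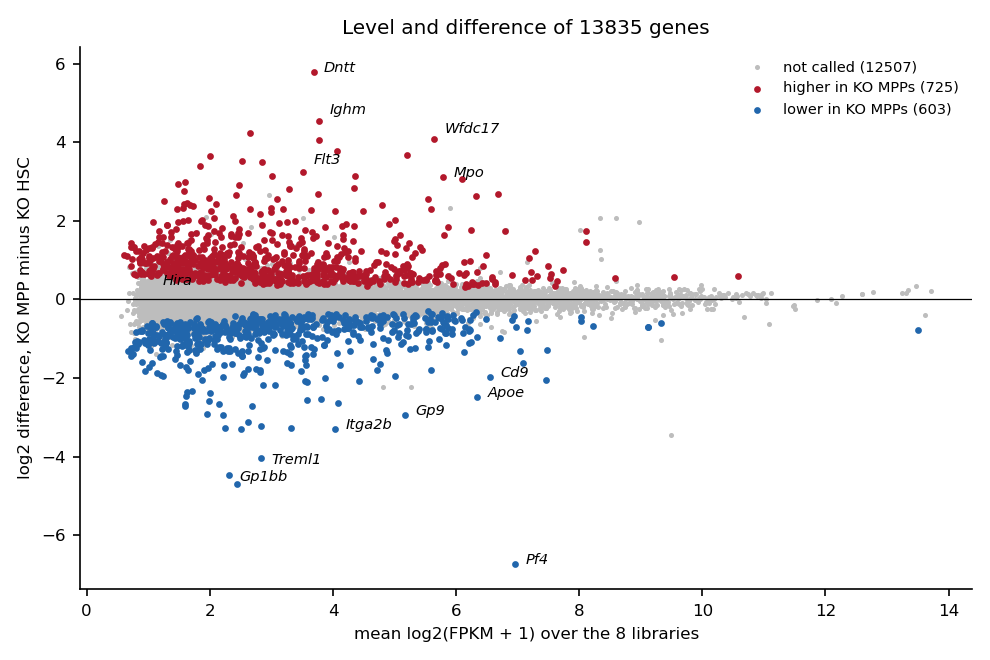
Each of the 13835 tested genes is a point, with its mean log2(FPKM + 1) over the 8 libraries on the x axis and its log2 difference, KO MPP minus KO HSC, on the y axis. The 725 genes called higher in KO MPPs are red, the 603 called lower are blue and the rest grey, and Pf4 (-6.74) and Dntt (5.79) lie at the ends.

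Among well-expressed genes without overlap, the 10 largest differences on each side were named by rule. On the higher side stood Dntt, Ighm, Wfdc17, Ccl9, BC035044, Cd53, Flt3, Fcnb, Cldn13 and Mpo. Fcnb encodes a ficolin, Ccl9 a chemokine and Cd53 a leukocyte tetraspanin, and Dntt, Flt3, Mpo, Wfdc17 and Cldn13 are described with their lists. On the lower side stood, among others, Pf4, Itga2b, Tuba8, Gp9, F2r, Gm43904, Mir8116, Apoe and Rbpms2. Pf4, Itga2b, Gp9 and F2r are platelet genes. Rbpms2, an RNA-binding protein gene, had means of 16.9 ± 2.11 FPKM in KO HSCs and 3.38 ± 2.24 FPKM in KO MPPs, and BC035044, listed under its clone name, 3.58 ± 0.647 FPKM in KO HSCs and 61.3 ± 7.97 FPKM in KO MPPs. Apoe, the apolipoprotein E gene, stood at 206, 219, 171 and 175 FPKM in the 4 KO HSC libraries and 30.6, 32.8, 34.7 and 35.4 FPKM in the 4 KO MPP libraries, with a difference of -2.49 ± 0.11 (adjusted p = 3.9e-07). Ccl9 stood at 2.14, 3.16, 1.77 and 2.44 FPKM in the 4 KO HSC libraries and 74.4, 79.6, 38.5 and 38.8 FPKM in the 4 KO MPP libraries, and the KO MPP libraries fell into a higher and a lower pair. The values of Mir8116 and of the noncoding RNA Gm43904 rest on as few as 12 and 20 reads in a library, and polyA libraries are not made to measure microRNAs.

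The called megakaryocyte and platelet genes were all lower in KO MPPs. Of 35 listed genes 32 were tested, 29 were lower and 0 higher, and the median difference was -1.94. By limma at an unadjusted p under 0.05, and by voom on recovered reads, the number higher was also 0. The filter admitted 8 members through KO HSCs alone, and with 1 FPKM required in all libraries 17 were lower. Pf4 encodes the chemokine platelet factor 4 of platelet granules. It stood at 1484, 1504, 1099.7 and 1098 FPKM in the 4 KO HSC libraries and 7.43, 10.8, 18.4 and 9.64 FPKM in the 4 KO MPP libraries. Even the lowest KO HSC library was far above the highest KO MPP library, and the means differed 112-fold. The difference on the log2 scale was -6.74 ± 0.23 (adjusted p = 8.3e-08). Itga2b, the integrin alpha chain of the fibrinogen receptor, was 11.9-fold lower, at 62.6, 54.3, 51.5 and 37.04 FPKM in the 4 KO HSC libraries and 4.2997, 5.55, 3.39 and 4.05 FPKM in the 4 KO MPP libraries. Its partner chain Itgb3 had means of 15.5 ± 1.31 FPKM in KO HSCs and 1.54 ± 0.401 FPKM in KO MPPs and a difference of -2.71 ± 0.14 (adjusted p = 1.34e-06).

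The von Willebrand receptor complex was also lower. Gp9 stood at 117, 104, 86.6 and 89.9 FPKM in the 4 KO HSC libraries and 15.5, 12.6, 10.6 and 9.59 FPKM in the 4 KO MPP libraries, Gp5 at means of 21.04 and 1.36 FPKM in KO HSCs and KO MPPs, and Gp1ba at 4.52 and 1.16 FPKM. Gp1bb stood at 28.8, 22.3, 24.04 and 16.5 FPKM in KO HSCs and was listed at 0 in 3 KO MPP libraries and at 0.254 FPKM in KO MPP 3. No ratio is given for Gp1bb, and its fitted difference depends on the pseudocount. Treml1, a receptor of platelet granules, stood at 31.1, 28.002, 28.9 and 23.9 FPKM in the 4 KO HSC libraries and 0.383, 1.13, 0.714 and 0.948 FPKM in the 4 KO MPP libraries (difference -4.02 ± 0.15, adjusted p = 1.32e-07). The ligand of the complex, Vwf, was 30.7-fold lower, at 7.04, 7.77, 5.64 and 6.21 FPKM in the 4 KO HSC libraries and 0.175, 0.354, 0.2299 and 0.1095 FPKM in the 4 KO MPP libraries. F2r, the thrombin receptor PAR1, stood at 45.3, 43.99, 42.2 and 34.7 FPKM in the 4 KO HSC libraries and 5.81, 3.57, 5.24 and 10.1 FPKM in the 4 KO MPP libraries, and KO MPP 4 was the highest of its group. Tuba8, an alpha-tubulin, stood at 38.4, 33.7, 30.5 and 19.7 FPKM in the 4 KO HSC libraries and 2.02, 2.703, 2.43 and 1.77 FPKM in the 4 KO MPP libraries. Sdpr, the caveolae gene now named Cavin2, was picked after its values were seen. It fell from a mean of 26.8 FPKM in KO HSCs to 0.0626 FPKM in KO MPPs. Fli1, an ETS factor of megakaryocytes and HSCs, stood at 76.3, 61.1, 64.9 and 68.9 FPKM in the 4 KO HSC libraries and 31.3, 26.1, 33.3 and 37.2 FPKM in the 4 KO MPP libraries, a difference of -1.07 ± 0.12 (adjusted p = 0.000306). Cd9, a tetraspanin of platelets, was 4.002-fold lower, with means of 185 ± 17.8 FPKM in KO HSCs and 46.3 ± 4.302 FPKM in KO MPPs. The summed level of the whole list ran from 2199 to 2857 FPKM in KO HSCs and from 362 to 394 FPKM in KO MPPs, and Pf4 made up the largest share of the former.

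**Figure D2:**
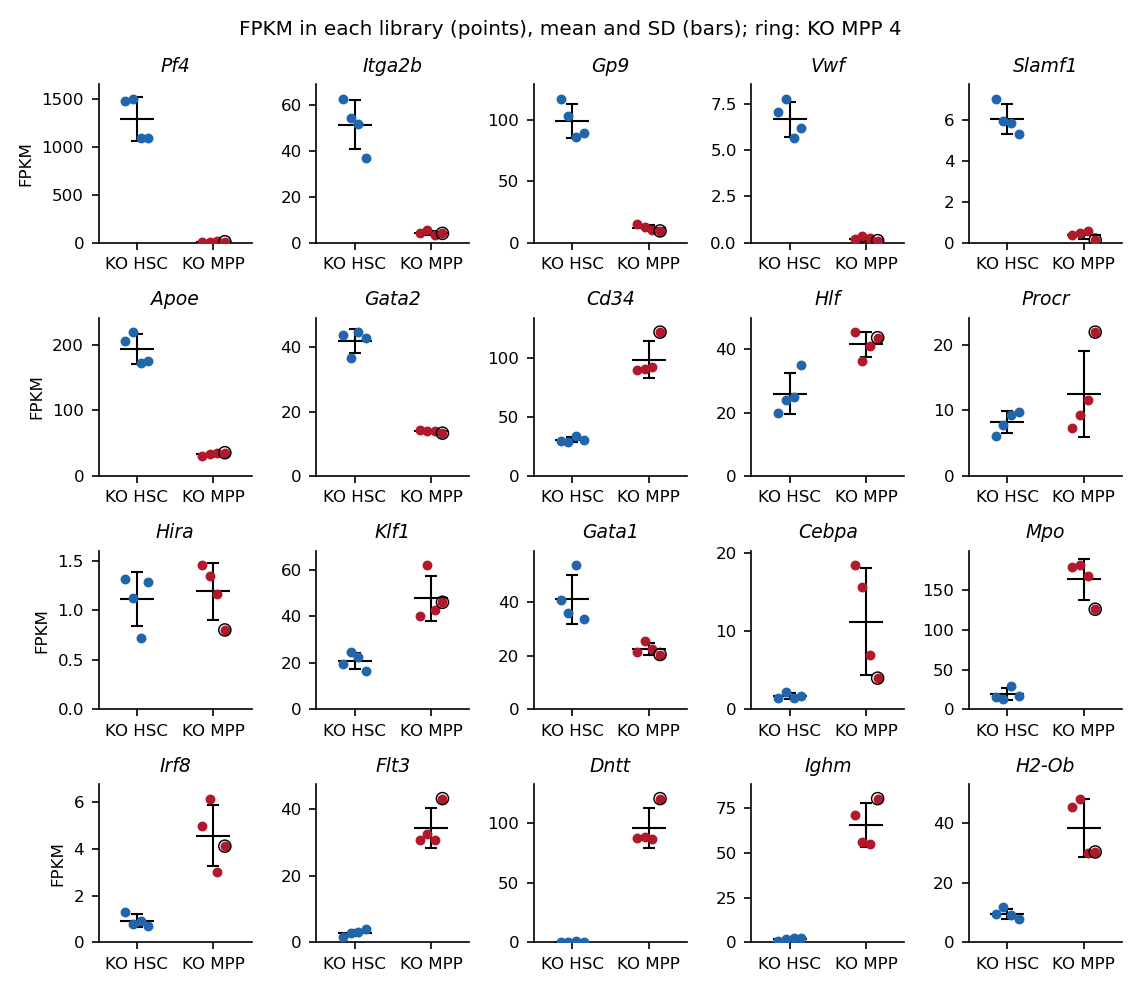
FPKM of 20 genes in the 4 KO HSC libraries (blue) and the 4 KO MPP libraries (red), each panel with its own linear y axis from 0, with the mean as a horizontal bar and the SD as the error bar. KO MPP 4 is ringed: it is the highest of its group for Cd34, Procr, Flt3, Dntt and Ighm and the lowest for Cebpa, Mpo and Hira.

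Surface and identity markers of HSCs were mostly lower in KO MPPs. Of 45 listed genes 34 were tested, 19 were lower and 3 higher (Cd34, Ly6a and Ltb), with a median of -1.06. The filter admitted 3 of the lower ones (Slamf1, Vwf and Ctnnal1) through KO HSCs alone, and with 1 FPKM required in all libraries 13 were lower. Beside the platelet genes Itga2b, Vwf and Cd9, the genes called lower included Ctnnal1, an alpha-catulin used as an HSC reporter, at means of 4.55 and 0.7001 FPKM. Esam, an adhesion molecule of HSCs and endothelium, had means of 47.1 ± 6.29 FPKM in KO HSCs and 14.8 ± 4.46 FPKM in KO MPPs. The highest KO MPP value for Esam was 21.5 FPKM in KO MPP 4. Tek, the angiopoietin receptor, stood at 7.97, 7.83, 5.37 and 8.63 FPKM in the 4 KO HSC libraries and 2.53, 1.66, 2.18 and 0.563 FPKM in the 4 KO MPP libraries. Cd34, the sialomucin that marks progenitors, stood at 29.6, 28.6, 33.4 and 30.1 FPKM in the 4 KO HSC libraries and 89.3, 90.1, 91.9 and 121 FPKM in the 4 KO MPP libraries and was 3.23-fold higher. Ly6a, which encodes Sca-1 and answers to interferon, had means of 52.6 ± 6.59 FPKM in KO HSCs and 104 ± 8.52 FPKM in KO MPPs (difference 0.98 ± 0.11, adjusted p = 0.000293). Ltb, the lymphotoxin beta chain, had means of 25.4 ± 2.74 FPKM in KO HSCs and 43.4 ± 12.5 FPKM in KO MPPs (adjusted p = 0.036). Without KO MPP 4, 22 of the tested markers were lower.

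The transcription factors split. Of 40 listed, 35 were tested, 11 were lower, 7 higher and 17 not called, with a median of -0.23. The number higher was 3 or 4 without any 1 of the 4 KO HSC libraries, KO MPP 1 or KO MPP 2, and the number lower was 7 without KO HSC 2 and 6 without KO HSC 3. Gata2, a zinc finger factor HSCs depend on, stood at 43.8, 36.5, 44.7 and 42.9 FPKM in the 4 KO HSC libraries and 14.2, 13.99, 14.1 and 13.3 FPKM in the 4 KO MPP libraries. The KO MPP values of Gata2 lay within 1 FPKM of each other, and the cell types did not overlap. The difference was -1.53 ± 0.10 (adjusted p = 4.17e-06). Meis1, a cofactor of Hox proteins, was lower at means of 23.8 ± 0.955 FPKM in KO HSCs and 15.1 ± 3.35 FPKM in KO MPPs, whereas Hoxa9 was higher at 12.1 ± 1.803 FPKM in KO HSCs and 21.9 ± 2.95 FPKM in KO MPPs. Gfi1, a repressor of granulocyte and lymphoid progenitors, stood at 0.367, 0.593, 1.76 and 0.991 FPKM in the 4 KO HSC libraries and 7.06, 7.804, 9.59 and 7.02 FPKM in the 4 KO MPP libraries and had the largest difference on the higher side, 2.24 ± 0.21 (adjusted p = 8.11e-05). Ikzf2, the Ikaros family member Helios, was higher at means of 4.03 ± 0.5302 FPKM in KO HSCs and 8.11 ± 1.34 FPKM in KO MPPs.

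Most tested genes of the MPP and lymphoid priming list were higher in KO MPPs. The list joins MPP genes with lymphoid ones, and Il7r, Rag1, Ebf1 and Pax5 were below the filter. Of 31 listed genes 22 were tested, 17 were higher in KO MPPs and 1 lower, with a median of 1.30. Through KO MPPs alone 3 of them were admitted, and without KO MPP 4 the number higher was 14. Dntt, the terminal transferase that adds bases at the joints of antigen receptor genes, stood at 0.736, 0.444, 1.23 and 0.586 FPKM in the 4 KO HSC libraries and 87.6, 88.4, 86.5 and 120.4 FPKM in the 4 KO MPP libraries. KO HSC values stayed near 1 FPKM or below, and KO MPP 4 was the highest. The means differed 128-fold and the difference was 5.79 ± 0.16 (adjusted p = 1.36e-08). Flt3, the receptor tyrosine kinase of lymphoid-primed progenitors, stood at 1.48, 2.82, 3.15 and 3.95 FPKM in the 4 KO HSC libraries and 30.9, 32.6, 30.9 and 43.2 FPKM in the 4 KO MPP libraries, 12.1-fold higher (adjusted p = 4.02e-06). Cd53 stood at 5.99, 11.2, 12.2 and 9.21 FPKM in the 4 KO HSC libraries and 113, 122, 138 and 157 FPKM in the 4 KO MPP libraries. Emb, the membrane protein embigin, had means of 18.4 ± 0.926 FPKM in KO HSCs and 113 ± 19.4 FPKM in KO MPPs (difference 2.54 ± 0.12, adjusted p = 1.08e-06). Cd48 had means of 22.3 ± 4.46 FPKM in KO HSCs and 60.9 ± 4.21 FPKM in KO MPPs. Mef2c, a MADS box factor of lymphoid progenitors, was the single member on the lower side, at means of 15.3 ± 1.58 FPKM in KO HSCs and 9.05 ± 0.841 FPKM in KO MPPs (difference -0.69 ± 0.11, adjusted p = 0.00249).

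Transcripts of the immunoglobulin heavy chain locus on chromosome 12 accompanied them. Ighm, the constant region of IgM at chr12:113418558-113422730 (GRCm38), stood at 0.764, 2.12, 2.19 and 2.602 FPKM in the 4 KO HSC libraries and 71.4, 55.99, 55.1 and 80.4 FPKM in the 4 KO MPP libraries, and no KO HSC library came near the KO MPP values (difference 4.55 ± 0.22, adjusted p = 1e-06). Beside Ighm, Ighj1 and 9 V segments passed the filter and were called higher. All reached 1 FPKM in the 4 KO MPP libraries and in at most 1 KO HSC library, so this count is a description of what was detected. The V segments were picked after their values were seen. Ighv1-76, at chr12:115847881-115848331, stood at 0.0851, 0, 0.502 and 0 FPKM in the 4 KO HSC libraries and 7.196, 18.9, 12.7 and 17.2 FPKM in the 4 KO MPP libraries. Reads of such near-identical segments can be split or shared by the counting. Ighv1-80 (1.45 to 5.90 FPKM in KO MPPs) and Ighv1-78 (2.29 to 3.41 FPKM) are listed in the MPP table alone, and no table holds a gene at 0 in all of its libraries. The T cell receptor beta locus on chromosome 6 had 4 tested segments, picked after their values were seen. The constant regions Trbc1 and Trbc2 were not called (differences 1.38 and 1.095, adjusted p = 0.219 and 0.0877 by limma). The segments Trbv12-2 (-1.74, adjusted p = 0.00302) and Trbv13-2 were lower. Trbv13-2 stood at 22.1, 26.2, 20.4 and 23.8 FPKM in the 4 KO HSC libraries and 6.76, 5.61, 3.09 and 4.07 FPKM in the 4 KO MPP libraries (difference -2.07 ± 0.19, adjusted p = 5.83e-05).

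The called genes of granulocyte and monocyte progenitors were all higher. Of 34 listed genes 31 were tested, 23 were higher and 0 lower, with a median of 1.25. At an unadjusted p under 0.05 by limma, and by voom, 0 were lower as well. Mpo, the myeloperoxidase of primary granules, stood at 15.3, 13.1, 29.6 and 16.4 FPKM in the 4 KO HSC libraries and 179.8, 181, 168 and 126 FPKM in the 4 KO MPP libraries, 8.81-fold higher, with a difference of 3.13 ± 0.22 (adjusted p = 9.99e-06). Hk3, the hexokinase of myeloid cells, had means of 2.72 ± 0.387 FPKM in KO HSCs and 16.6 ± 3.84 FPKM in KO MPPs (adjusted p = 1.53e-05). The granule protease Elane stood at 35.5, 28.6, 62.3 and 38.95 FPKM in the 4 KO HSC libraries and 339, 395, 288 and 117 FPKM in the 4 KO MPP libraries, and Ctsg at 19.01, 20.1, 38.3 and 18.1 FPKM in the 4 KO HSC libraries and 303, 286, 214 and 79.8 FPKM in the 4 KO MPP libraries. For both proteases KO MPP 4 was the lowest KO MPP library, yet above every KO HSC library. Cebpa, the factor that opens the granulocyte programme, showed the same order at 1.43, 2.18, 1.37 and 1.74 FPKM in the 4 KO HSC libraries and 18.5, 15.6, 6.94 and 3.98 FPKM in the 4 KO MPP libraries (difference 2.00 ± 0.37, adjusted p = 0.00601). Irf8, the factor of the monocyte branch, stood at 1.32, 0.809, 0.895 and 0.701 FPKM in the 4 KO HSC libraries and 4.98, 6.15, 3.03 and 4.12 FPKM in the 4 KO MPP libraries. Fcnb had means of 2.01 ± 1.51 FPKM in KO HSCs and 28.4 ± 15.5 FPKM in KO MPPs, and 5.34 FPKM in KO MPP 4. Wfdc17, a secreted whey acidic protein family member of myeloid cells, stood at 12.5, 7.69, 9.22 and 16.98 FPKM in the 4 KO HSC libraries and 254, 237, 227 and 128 FPKM in the 4 KO MPP libraries. Without KO MPP 4 the number of higher members was 26 and the median 1.45.

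Erythroid genes were called on both sides. Of 36 listed genes 29 were tested, 13 were higher and 4 lower, with a median of 0.78. Lower were Gata1, Zfpm1, Gfi1b and Mfsd2b. Gata1, the master factor of red cells and megakaryocytes, stood at 40.7, 35.7, 53.6 and 33.5 FPKM in the 4 KO HSC libraries and 21.4, 25.3, 22.4 and 20.4 FPKM in the 4 KO MPP libraries, and its cofactor Zfpm1 (FOG1) at 15.6, 15.4, 11.9 and 13.9 FPKM in the 4 KO HSC libraries and 6.66, 7.697, 4.93 and 3.75 FPKM in the 4 KO MPP libraries. Mfsd2b, a sphingosine-1-phosphate exporter of red cells and platelets, stood at 54.3, 43.2, 44.3 and 32.5 FPKM in the 4 KO HSC libraries and 8.91, 10.3, 8.83 and 9.59 FPKM in the 4 KO MPP libraries (difference -2.08 ± 0.14, adjusted p = 7.97e-06). Gata1, Zfpm1 and Gfi1b also act in megakaryocytes. Higher were Klf1, the red cell factor that drives globin and membrane genes, at 19.5, 24.4, 22.4 and 16.5 FPKM in the 4 KO HSC libraries and 40.02, 61.9, 42.9 and 46.02 FPKM in the 4 KO MPP libraries (difference 1.16 ± 0.16, adjusted p = 0.000905), and several membrane and uptake genes. Rhd, of the Rhesus complex, stood at 4.07, 12.9, 6.88 and 4.77 FPKM in the 4 KO HSC libraries and 49.4, 76.9, 52.2 and 39.98 FPKM in the 4 KO MPP libraries. Tfrc, the transferrin receptor, had means of 5.78 ± 0.255 FPKM in KO HSCs and 18.02 ± 3.83 FPKM in KO MPPs, and Ermap, an erythroblast membrane protein, 3.95 ± 1.38 FPKM in KO HSCs and 18.3 ± 4.05 FPKM in KO MPPs. Cldn13, a claudin found on mouse red cell precursors, stood at 3.17, 9.75, 5.71 and 6.52 FPKM in the 4 KO HSC libraries and 49.5, 85.6, 64.8 and 45.2 FPKM in the 4 KO MPP libraries. Globin transcripts varied widely among libraries. Hba-a1, named after its values were seen, stood at 30.7, 1842, 22.2 and 454 FPKM in the 4 KO HSC libraries and 393, 2522, 1088 and 182 FPKM in the 4 KO MPP libraries, with both libraries of replicate number 2 the highest of their groups. Its difference of 2.08 ± 1.31 was not called (adjusted p = 0.417, 95% interval -0.82 to 4.98). The summed level of the list ran from 1475 to 8178 FPKM in KO HSCs and from 2387 to 10909 FPKM in KO MPPs. In KO HSC 2 and KO MPP 2 globins were most of it. The part of red cell RNA in these results was not tested. With the WT libraries in a joint fit Gata1 was not called (adjusted p = 0.174 by limma).

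The called genes of cell division were all lower in KO MPPs. Of 69 listed mitosis genes 67 were tested, 22 were lower, 0 higher and 45 not called, with a median of -0.48, against -0.0048 for all genes. The number higher was also 0 at an unadjusted p under 0.05 by limma and by voom, and the number lower was then 48 and 29. Without KO MPP 4, 33 were lower, and with no filter on low values 14. The number was 11 without KO HSC 1, KO HSC 3 or KO MPP 2, 12 without KO MPP 1 and 13 without KO HSC 4. Ckap2l, a mitotic spindle protein, stood at 22.7, 14.8, 21.3 and 17.7 FPKM in the 4 KO HSC libraries and 6.34, 2.91, 7.69 and 7.81 FPKM in the 4 KO MPP libraries (difference -1.54 ± 0.25, adjusted p = 0.0026). Prc1, which bundles the microtubules of the central spindle, stood at 5.56, 3.98, 5.098 and 5.41 FPKM in the 4 KO HSC libraries and 1.78, 1.996, 2.52 and 2.64 FPKM in the 4 KO MPP libraries (adjusted p = 0.0026). Bora, an activator of Aurora A, had means of 23.1 ± 1.33 FPKM in KO HSCs and 13.8 ± 2.401 FPKM in KO MPPs, and Kif11, the kinesin that separates spindle poles, 13.8 ± 1.67 FPKM in KO HSCs and 7.14 ± 1.503 FPKM in KO MPPs. Ccnf, which encodes cyclin F, had means of 11.3 ± 1.64 FPKM in KO HSCs and 6.68 ± 0.933 FPKM in KO MPPs and Cdk1, the kinase that starts mitosis, 45.4 ± 4.31 FPKM in KO HSCs and 29.3 ± 5.33 FPKM in KO MPPs. No KO MPP value of these 6 genes reached the lowest KO HSC value.

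The promoters of mitosis genes are shown because all members called were lower. Cell cycle promoters are known for a CCAAT box and a cell cycle homology region (CHR) a short way apart. The 5 members called with the smallest adjusted p and a promoter in the RefSeq table (GRCm38.p6) are printed from 140 bases before the start to 10 bases after it, 5′ to 3′ on the strand of the gene. Capitals mark both motifs on either strand. The box was searched as CCAAT. The CHR core was searched as TTTGAA and also in its variant form TTCGAA.
Prc1, chr7:80294311-80294460, plus strand: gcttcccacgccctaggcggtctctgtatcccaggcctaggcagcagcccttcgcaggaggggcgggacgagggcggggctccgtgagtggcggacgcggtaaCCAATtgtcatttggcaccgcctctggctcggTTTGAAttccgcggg
Ckap2l, chr2:129297203-129297352, minus strand: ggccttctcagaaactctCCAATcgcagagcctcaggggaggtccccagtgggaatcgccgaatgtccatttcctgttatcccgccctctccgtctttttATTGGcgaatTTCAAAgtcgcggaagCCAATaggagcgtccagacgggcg
Kif11, chr19:37376242-37376391, plus strand: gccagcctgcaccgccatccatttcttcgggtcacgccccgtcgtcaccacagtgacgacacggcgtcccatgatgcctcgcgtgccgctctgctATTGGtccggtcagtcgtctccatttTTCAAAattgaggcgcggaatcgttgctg
Ccnf, chr17:24251400-24251549, minus strand: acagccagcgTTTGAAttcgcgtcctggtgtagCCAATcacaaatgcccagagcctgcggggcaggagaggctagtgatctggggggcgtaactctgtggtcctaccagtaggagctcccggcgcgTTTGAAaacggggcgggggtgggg
Cdk1, chr10:69352903-69353052, minus strand: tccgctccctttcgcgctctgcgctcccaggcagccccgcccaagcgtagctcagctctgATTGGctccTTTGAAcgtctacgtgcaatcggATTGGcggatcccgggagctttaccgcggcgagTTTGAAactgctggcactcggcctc
Each stretch held at least 1 CCAAT and at least 1 CHR match. Prc1 has 2 windows, and the choice between them preferred the one holding more of the motifs, so its matches may owe to that choice. Ckap2l, Kif11, Ccnf and Cdk1 have 1 window each. In Prc1 the CCAAT began 37 bases and the CHR match 5 bases before the start, and in Kif11 45 and 19 bases before it. In Cdk1 the pair nearest the start began 48 and 15 bases before it. In Ccnf the CCAAT began 107 bases and the CHR matches 130 and 14 bases before the start. In Ckap2l the CCAAT matches began 122, 40 and 14 bases and the CHR match 30 bases before it. The spacing was thus not the same in all 5. In windows from 250 bases before to 50 after the start, a CCAAT stood in 44 of 60 windows of tested mitosis genes (73.3%), against 37.4% of all 32851 windows. A CHR match stood in 42 of the 60 (70.0%), against 19.2% of all windows, and both motifs in 36 (60.0%), against 7.5%. Of the 17 windows of mitosis genes called lower, 14 held both (82.4%). Among windows of all genes called lower the share with both was 9.7% (49 of 504, the 14 of mitosis genes included), and among those called higher 5.1%. A match is a description of letters and not a bound site, and the windows cover 55 of the 67 tested members.

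S phase genes were called on both sides. Of 56 listed genes 55 were tested, 5 were lower and 2 higher, with a median of -0.13, against 4.36% lower and 5.24% higher among all tested genes. Without KO MPP 4, 8 were lower, and without KO HSC 1, KO HSC 3, KO MPP 1 or KO MPP 2 it was 2. Pold1, the catalytic subunit of DNA polymerase delta, was lower at means of 17.9 ± 2.84 FPKM in KO HSCs and 10.7 ± 1.13 FPKM in KO MPPs, as were Dnmt1, the maintenance DNA methyltransferase, at 30.3 ± 1.996 FPKM in KO HSCs and 21.1 ± 2.2999 FPKM in KO MPPs, and Tk1, the thymidine kinase, at 21.99 ± 3.08 FPKM in KO HSCs and 15.1 ± 1.19 FPKM in KO MPPs. Ccne1, the cyclin of the G1 to S transition, was higher at 5.19, 6.49, 7.36 and 4.2005 FPKM in the 4 KO HSC libraries and 13.5, 19.5, 12.2 and 18.2 FPKM in the 4 KO MPP libraries (difference 1.31 ± 0.19, adjusted p = 0.00122), as was Cdc6, which loads the replicative helicase, at means of 7.61 ± 0.739 FPKM in KO HSCs and 10.8 ± 1.34 FPKM in KO MPPs (adjusted p = 0.0364). Replication-dependent histone genes were lower in 17 of 58 tested members (65 listed) and higher in 0, also 0 by limma at an unadjusted p under 0.05 and by voom, with a median of -0.25. Hist1h1e, a linker histone, stood at 28.2, 24.8, 30.5 and 38.4 FPKM in the 4 KO HSC libraries and 16.98, 16.03, 14.4 and 10.5 FPKM in the 4 KO MPP libraries (adjusted p = 0.00276). Hist1h2af and Hist1h2ae, both H2A genes, had means of 54.7 ± 11.6 FPKM in KO HSCs and 29.3 ± 1.93 FPKM in KO MPPs and 113 ± 24.5 FPKM in KO HSCs and 57.7 ± 9.96 FPKM in KO MPPs. These genes share near-identical sequence, and polyA libraries catch part of their RNA, so single members are uncertain. Outside the lists, and picked after its values were seen, H2afy, which encodes the histone variant macroH2A1, stood at 58.9, 65.2, 52.9 and 63.5 FPKM in the 4 KO HSC libraries and 206, 217, 209.8 and 179 FPKM in the 4 KO MPP libraries (difference 1.74 ± 0.10, adjusted p = 3.4e-06), 3.37-fold higher without overlap.

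Histone chaperones were examined with the genes of H3.3. All 26 listed genes were tested, 2 were lower and 0 higher, with a median of -0.05. Among all tested genes 4.36% were lower and 5.24% higher. At an unadjusted p under 0.05 limma gave 6 lower and 1 higher, and voom 3 lower and 0 higher. Without KO MPP 4, 4 were lower, and under the alternatives the number ran from 0 to 4. Asf1b, which hands new H3 and H4 to the assembly factors during replication, had means of 40.8 ± 4.47 FPKM in KO HSCs and 29.2 ± 2.79 FPKM in KO MPPs (adjusted p = 0.0221). Dek, a chromatin protein that handles H3.3, had means of 88.96 ± 2.87 FPKM in KO HSCs and 70.7 ± 4.86 FPKM in KO MPPs (adjusted p = 0.0414). Neither was called with the libraries rescaled to one FPKM total (adjusted p = 0.0665 for Asf1b and 0.131 for Dek by limma). Of 38 Polycomb and DNA methylation genes 1 was called, Dnmt1, given above, and without KO MPP 4 it was 2 lower and 1 higher.

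Genes of quiescence and imprinted genes gave mixed counts. Of 35 tested CDK inhibitor and quiescence genes (40 listed) 5 were lower and 4 higher, with a median of -0.03, and leaving out any 1 library other than KO MPP 4 gave 1 or 2 higher. Tgfbr3, a TGF-beta co-receptor, stood at 8.98, 8.35, 7.59 and 7.98 FPKM in the 4 KO HSC libraries and 0.7897, 1.04, 1.91 and 1.89 FPKM in the 4 KO MPP libraries (difference -1.97 ± 0.17, adjusted p = 5.21e-05). Cdkn2d, an inhibitor of CDK4 and CDK6, was lower at means of 63.8 ± 2.46 FPKM in KO HSCs and 36.3 ± 6.08 FPKM in KO MPPs, as was Tgfb1 at 4.66 ± 0.282 FPKM in KO HSCs and 2.504 ± 0.399 FPKM in KO MPPs. Cdkn1a, the p53-responsive inhibitor p21, was higher at 3.03, 3.95, 3.21 and 2.298 FPKM in the 4 KO HSC libraries and 7.82, 14.3, 10.6 and 4.04 FPKM in the 4 KO MPP libraries (difference 1.21 ± 0.29, adjusted p = 0.0246), with KO MPP 4 the lowest of its group. Smad7 and Foxo3 were higher at 2.404 ± 0.307 FPKM in KO HSCs and 5.06 ± 0.338 FPKM in KO MPPs, and 20.3 ± 2.24 FPKM in KO HSCs and 28.6 ± 2.07 FPKM in KO MPPs. Of 9 tested imprinted genes (30 listed) 5 were lower and 1 higher, with a median of -0.84. Grb10, an adaptor that restrains growth factor signals, stood at 6.33, 7.31, 6.76 and 6.01 FPKM in the 4 KO HSC libraries and 2.65, 1.603, 2.49 and 2.32 FPKM in the 4 KO MPP libraries (adjusted p = 0.000259). Slc22a3, an organic cation transporter, had means of 36.2 ± 1.199 FPKM in KO HSCs and 16.5 ± 5.11 FPKM in KO MPPs, and Ndn, which encodes necdin, 7.21 ± 0.732 FPKM in KO HSCs and 3.38 ± 1.199 FPKM in KO MPPs. Igf2r, the receptor that clears IGF2, was the higher one at 1.35 ± 0.2598 FPKM in KO HSCs and 2.98 ± 0.605 FPKM in KO MPPs. Mycn was lower at 61.6 ± 8.34 FPKM in KO HSCs and 25.4 ± 1.68 FPKM in KO MPPs, as were the D cyclins Ccnd1 at 4.32 ± 0.672 FPKM in KO HSCs and 2.17 ± 0.796 FPKM in KO MPPs and Ccnd2 at 46.2 ± 3.88 FPKM in KO HSCs and 31.8 ± 3.04 FPKM in KO MPPs.

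**Figure D3:**
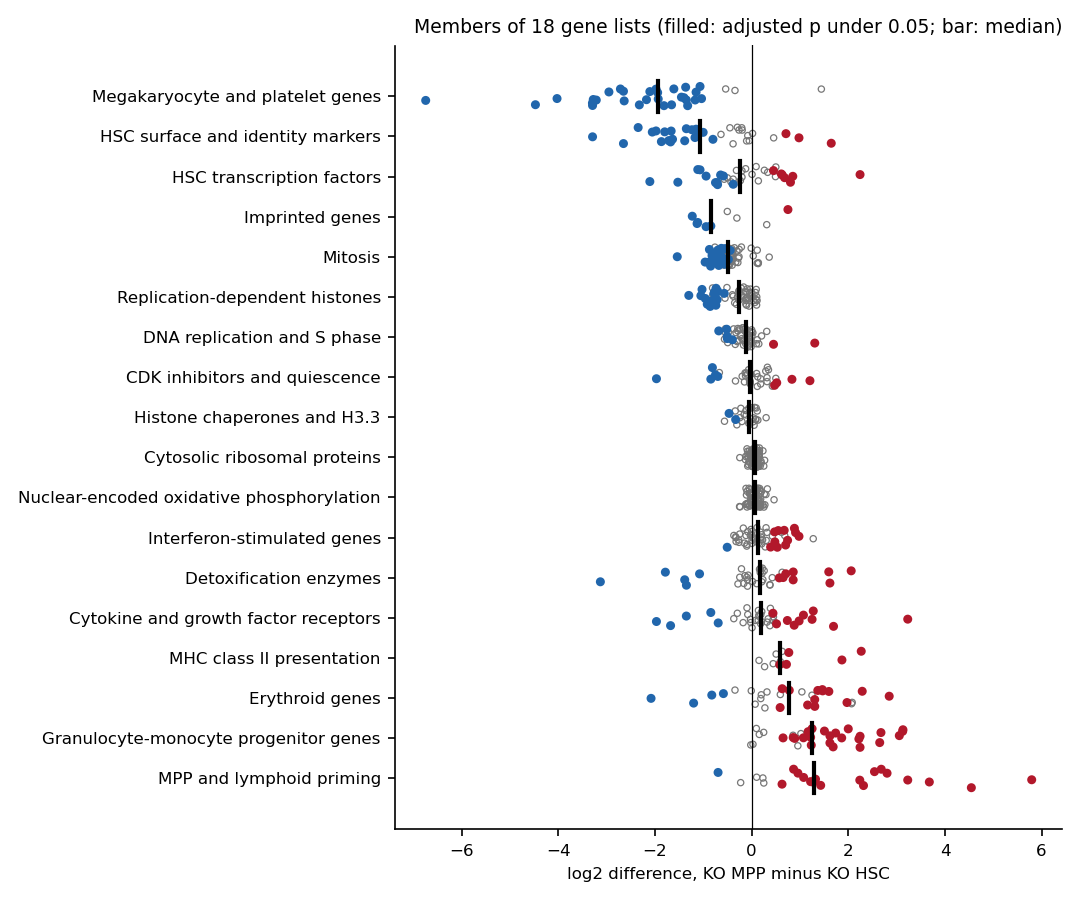
Log2 difference, KO MPP minus KO HSC (x axis), of every tested member of 18 gene lists (rows), with filled points for called genes (red higher, blue lower), open points for the rest and a bar at the list median. Megakaryocyte genes (median -1.94) and MPP and lymphoid priming genes (median 1.30) lie at opposite ends. Ribosomal proteins (0.06) and oxidative phosphorylation genes (0.07) gather at 0.

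Receptors for cytokines and growth factors changed in 15 of 40 tested members (50 listed), with 10 higher, 5 lower and a median of 0.20. Without any 1 of KO HSC 1 to 3 or KO MPP 1 to 3 the number lower was 3. Il1r1, the interleukin 1 receptor, stood at 1.15, 0.781, 0.581 and 1.13 FPKM in the 4 KO HSC libraries and 6.15, 4.34, 5.29 and 4.89 FPKM in the 4 KO MPP libraries (adjusted p = 6.51e-05). Ifnar2, a chain of the type I interferon receptor, stood at 10.6, 10.4, 10.7 and 10.4 FPKM in the 4 KO HSC libraries and 19.1, 23.2, 23.8 and 21.4 FPKM in the 4 KO MPP libraries, and no library of one group reached the other (difference 0.98 ± 0.10, adjusted p = 0.000129). Adhesion and migration genes gave 10 higher and 9 lower of 28 tested (37 listed), with a median of 0.04, so that Cd34 and Cd48 on the higher side stood against Itga2b, Itgb3 and Esam on the lower. Detoxification enzymes gave 8 higher and 5 lower of 36 tested (40 listed), with a median of 0.18. Gstm2, a mu class glutathione transferase, stood at 17.8, 18.04, 15.7 and 17.2 FPKM in the 4 KO HSC libraries and 0.912, 0.751, 1.23 and 1.49 FPKM in the 4 KO MPP libraries, 15.7-fold lower (adjusted p = 3.9e-07). Its neighbour in the mu class, Gstm1, was higher at 63.9 ± 8.75 FPKM in KO HSCs and 117 ± 13.4 FPKM in KO MPPs. Aldh1a1, the retinaldehyde dehydrogenase used to stain stem cells, was lower at 50.4, 46.7, 43.3 and 50.1 FPKM in the 4 KO HSC libraries and 14.9, 13.4, 13.3 and 10.99 FPKM in the 4 KO MPP libraries. Aldh1a7, picked after its values were seen, was higher at means of 2.26 ± 0.922 FPKM in KO HSCs and 8.86 ± 2.69 FPKM in KO MPPs, and as these aldehyde dehydrogenases are close paralogs their reads may be shared. Gstt1 was lower at 14.6 ± 3.52 FPKM in KO HSCs and 5.06 ± 1.105 FPKM in KO MPPs, and the microsomal transferases Mgst1 and Mgst2 higher at 6.83 ± 2.79 FPKM in KO HSCs and 22.5 ± 4.86 FPKM in KO MPPs and 1.09 ± 0.516 FPKM in KO HSCs and 7.78 ± 2.36 FPKM in KO MPPs.

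Interferon-stimulated genes, a class that poly(I:C) is known to induce, were higher in 11 and lower in 1 of 52 tested members (60 listed), with a median of 0.13. The number higher was 4 to 7 without any 1 of KO HSC 1 to 3 or KO MPP 1 to 3, the lowest without KO HSC 1. Irf1, a factor of the interferon response, had means of 10.8 ± 0.517 FPKM in KO HSCs and 18.9 ± 2.398 FPKM in KO MPPs (adjusted p = 0.00149), and Ifi27 40.8 ± 8.29 FPKM in KO HSCs and 77.1 ± 12.1 FPKM in KO MPPs (adjusted p = 0.00339). Ifi47, an interferon-inducible GTPase, was the lower one at 68.5 ± 7.67 FPKM in KO HSCs and 48.3 ± 8.27 FPKM in KO MPPs (adjusted p = 0.0374). MHC class I presentation gave 2 higher (Tap2 and Psmb8) and 1 lower (H2-Q7) of 22 tested, with a median of -0.05, and without KO MPP 4 it was 3 lower. Tap2, which loads peptides, had means of 21.7 ± 1.903 FPKM in KO HSCs and 36.4 ± 8.301 FPKM in KO MPPs, the immunoproteasome subunit Psmb8 67.2 ± 4.02 FPKM in KO HSCs and 88.6 ± 8.03 FPKM in KO MPPs, and H2-Q7, a class I heavy chain with close paralogs, 106 ± 10.6 FPKM in KO HSCs and 74.9 ± 6.59 FPKM in KO MPPs. MHC class II presentation gave 5 higher and 0 lower of 11 tested (13 listed), 0 lower also by limma at an unadjusted p under 0.05 and by voom, with a median of 0.59. H2-Ob, a chain of the peptide exchange regulator H2-O, stood at 9.59, 11.8, 9.34 and 7.896 FPKM in the 4 KO HSC libraries and 45.5, 48.3, 29.9 and 30.4 FPKM in the 4 KO MPP libraries (difference 1.87 ± 0.18, adjusted p = 9.44e-05), and its partner H2-Oa at means of 6.401 ± 0.8997 FPKM in KO HSCs and 11.2 ± 1.78 FPKM in KO MPPs. Ctss, the protease cathepsin S, stood at 3.298, 3.38, 5.903 and 7.11 FPKM in the 4 KO HSC libraries and 25.5, 16.3, 27.1 and 42.9 FPKM in the 4 KO MPP libraries.

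Stress lists held single genes rather than blocks. Of 30 tested immediate-early and stress genes (39 listed) 3 were higher and 2 lower, with a median of 0.04, and without any 1 of the KO HSC libraries or KO MPP 2 the number higher was 1. Gadd45g, a stress sensor, was lower at 12.2 ± 3.14 FPKM in KO HSCs and 3.495 ± 0.603 FPKM in KO MPPs and Gadd45a higher at 3.198 ± 0.597 FPKM in KO HSCs and 5.897 ± 1.57 FPKM in KO MPPs. Dusp5, a nuclear ERK phosphatase, was higher at 1.34 ± 0.594 FPKM in KO HSCs and 6.903 ± 2.07 FPKM in KO MPPs, Zfp36, which destabilises mRNAs, at 10.8 ± 0.928 FPKM in KO HSCs and 17.3 ± 3.895 FPKM in KO MPPs, and Egr1, an early response factor, lower at 4.52 ± 0.6697 FPKM in KO HSCs and 2.34 ± 0.754 FPKM in KO MPPs. Of 19 tested p53 targets (26 listed) 4 were higher and 1 lower, with a median of 0.09. Xpc, a DNA damage sensor, stood at 5.94, 5.95, 5.31 and 6.33 FPKM in the 4 KO HSC libraries and 14.4, 13.6, 15.5 and 13.2 FPKM in the 4 KO MPP libraries (adjusted p = 5.8e-05), and the death receptor Fas was lower at 2.47 ± 0.768 FPKM in KO HSCs and 0.633 ± 0.492 FPKM in KO MPPs. Trp53inp1 and the sestrin Sesn1 were higher at 4.19 ± 0.973 FPKM in KO HSCs and 7.396 ± 0.767 FPKM in KO MPPs and at 19.9 ± 0.796 FPKM in KO HSCs and 28.5 ± 3.33 FPKM in KO MPPs.

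Genes of basic metabolism had medians near 0. None of 76 oxidative phosphorylation genes was called by limma (4 at an unadjusted p under 0.05, all higher) or by voom, with a median of 0.07, but without KO MPP 4 limma called 12 higher and the median was 0.18. The members of highest level, Cox8a and Atp5l, had means of 776 ± 34.6 FPKM in KO HSCs and 810.3 ± 216 FPKM in KO MPPs and of 557 ± 37.9 FPKM in KO HSCs and 607 ± 169 FPKM in KO MPPs. None of 79 tested ribosomal protein genes was called (1 at an unadjusted p under 0.05, 0 by voom), with a median of 0.06, and 3 were called higher without KO MPP 4. None of the 13 mitochondrially encoded genes was called, at an unadjusted p under 0.05 or by voom, with a median of 0.12. Glycolysis gave 3 higher and 3 lower of 24 tested (26 listed), with Hk3, Pgam1 and Pdk1 higher and Ldha, Pfkp and Pdk3 lower, and the number lower was 1 without KO HSC 1, 2 or 3 or without KO MPP 1 or 2. Ldha, the lactate dehydrogenase A chain, had means of 379.6 ± 59.1 FPKM in KO HSCs and 236 ± 14.4 FPKM in KO MPPs (adjusted p = 0.00719) and was the single gene called among 54 ribosome biogenesis and MYC target genes, of which 2 were called higher without KO MPP 4. Of 38 tested lysosome and autophagy genes the protease gene Ctsl was higher at 17.6 ± 2.63 FPKM in KO HSCs and 23.7 ± 1.304 FPKM in KO MPPs and Map1lc3a lower at 8.61 ± 1.44 FPKM in KO HSCs and 5.49 ± 1.29 FPKM in KO MPPs, and without KO MPP 4 limma called 4 lower.

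Markers of mature cells that the sort could hold were summed over their whole lists. Mature neutrophil genes ran from 618 to 988 FPKM in KO HSCs and were 2343, 4926, 4096 and 783 FPKM in the 4 KO MPP libraries. Of 17 tested (24 listed) 4 were higher and 1 lower, and without KO MPP 4 limma called 11 higher. Leaving out any 1 other library but KO HSC 2 gave 1 or 2 higher, the lowest without KO HSC 1. Camp, a neutrophil granule peptide, stood at 35.6, 36.2, 40.3 and 18.7 FPKM in the 4 KO HSC libraries and 249, 432, 343 and 41.9 FPKM in the 4 KO MPP libraries (adjusted p = 0.0199), while Il1b, the cytokine interleukin 1 beta, was 4.29, 4.63, 2.67 and 1.98 FPKM in KO HSCs and at 0 in 2 KO MPP libraries. Pglyrp1, a granule peptidoglycan binder, had means of 5.497 ± 0.896 FPKM in KO HSCs and 18.8 ± 5.25 FPKM in KO MPPs and Padi4, a histone citrullinase of neutrophils, 7.32 ± 1.01 FPKM in KO HSCs and 13.7 ± 3.51 FPKM in KO MPPs. Mast cell, basophil and eosinophil genes ran from 105 to 235 FPKM in KO HSCs and from 173 to 1767 FPKM in KO MPPs. Of 15 tested (28 listed) 2 were higher and 1 (Gata2) lower, Mcpt8, the basophil protease, stood at 1.65, 0, 0.432 and 1.13 FPKM in the 4 KO HSC libraries and 28.7, 20.5, 20.8 and 9.21 FPKM in the 4 KO MPP libraries (adjusted p = 0.000133), and the mast cell proteases Cma1 and Tpsb2 were at 0 in all 8 libraries. Hdc, the histidine decarboxylase of basophils and mast cells, passed the filter through KO MPPs alone, which fixed its direction, at 0.315 ± 0.147 FPKM in KO HSCs and 1.56 ± 0.574 FPKM in KO MPPs. Without KO MPP 1, KO MPP 2 or KO MPP 4 the list had 1 higher, and with 1 FPKM required in all libraries 0. The part of mature cells in the granulocyte and monocyte result was not tested.

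Macrophage genes ran from 222 to 268 FPKM in KO HSCs and from 82.7 to 101 FPKM in KO MPPs, with Apoe the largest member in every library. Of 13 tested (20 listed) 3 were higher, 1 (Apoe) lower and 9 not called, with a median of -0.03. Under the alternatives 1 to 4 were higher, and without KO MPP 4 the number lower was 2. Cd68, a lysosomal protein of macrophages, was higher at 11.3 ± 0.915 FPKM in KO HSCs and 19.02 ± 1.91 FPKM in KO MPPs, as were Slc40a1 at 1.58 ± 0.336 FPKM in KO HSCs and 3.12 ± 0.465 FPKM in KO MPPs and Lgmn at 1.07 ± 0.212 FPKM in KO HSCs and 2.98 ± 1.35 FPKM in KO MPPs. B cell genes ran from 20.6 to 26.5 and from 27.2 to 33.96 FPKM, with Cd79b at 21.3 ± 3.06 FPKM in KO HSCs and 24.5 ± 1.78 FPKM in KO MPPs, Vpreb1 at 1.84 ± 0.455 FPKM in KO HSCs and 1.44 ± 0.475 FPKM in KO MPPs and Ms4a1 at 0 in all 8 libraries. The 2 tested of 17 B cell genes were not called by limma, at an unadjusted p under 0.05 or by voom. T and NK cell genes ran from 178 to 210 and from 246 to 312 FPKM, of which Nkg7 had means of 148 ± 16.9 FPKM in KO HSCs and 234 ± 30.03 FPKM in KO MPPs. Lck, a kinase of T cells, was higher at 3.59 ± 0.163 FPKM in KO HSCs and 9.95 ± 2.14 FPKM in KO MPPs, and Eomes was at 0 in all 8 libraries. Of 8 tested T and NK cell genes (27 listed) 2 were higher (Lck and Nkg7), 0 lower and 6 not called. Without KO MPP 4 the number lower was 1. Stroma and endothelium ran from 35.6 to 41.1 and from 45.1 to 51.0 FPKM, with Ly6c1, Runx2 and Pdgfrb higher and Tie1 and Col1a2 lower. These were the 3 higher and 2 lower of 8 tested (23 listed), with a median of 0.41. Under the alternatives 2 to 4 were higher and 1 to 3 lower. Gkn3 (1.51 to 3.76 FPKM) and the potassium channel gene Kcnj5 (1.89 to 2.81 FPKM) are listed in the HSC table alone.

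Whether these differences depended on the genotype was tested over 16 libraries with an interaction of cell type and genotype. Of 14924 genes 5 (0.0335%) were called, 1 with KO minus WT above 0 (0.0067%) and 4 below 0 (0.0268%), and 1168 had an unadjusted p under 0.05. WT and KO share no library here, but within each cell type they were deposited and scaled together. Cell type and scaling cannot be told apart in either genotype. Of the 725 genes called higher in KO MPPs, 702 (96.8%) had the same sign in WT, and of the 603 called lower, 579 (96%), against 69.5% of all tested genes. The medians were 0.84 in KO and 0.81 in WT for the former, and -0.79 and -0.76 for the latter.

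The 4 genes below 0 were 1700003C15Rik, Gm43643, RP23-92D22.3 and Tmem158. In WT MPPs Gm43643 stood at 8.84, 11.9, 10.4 and 9.5995 FPKM, against a KO MPP mean of 1.095 FPKM. RP23-92D22.3 had an interaction of -2.68 ± 0.42 (adjusted p = 0.0272). Gm43643 had an interaction of -2.62 ± 0.38 (adjusted p = 0.017) and 1700003C15Rik of -1.71 ± 0.24 (adjusted p = 0.017). Both were at 0 in the 4 WT HSC libraries. 1700003C15Rik could be tested under 19 of 24 alternatives, because without some single libraries it no longer passed the filter. It thus passed through few libraries, and the filter may have fixed its direction. Tmem158, a protein-coding gene, was higher in WT MPPs than in WT HSCs by 0.79 and stood at 2.67 ± 0.575 FPKM in KO HSCs and 1.54 ± 0.206 FPKM in KO MPPs, an interaction of -1.31 ± 0.21 (adjusted p = 0.032). The KO difference of Tmem158 was not called (-0.52, limma adjusted p = 0.0574), and its interaction call ended under 16 of 24 alternatives. Mir3060 was above 0 (1.42, adjusted p = 0.017) and was listed at 0 in all KO HSC libraries. None of the 5 was called with the replicate block or by voom.

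**Figure D4:**
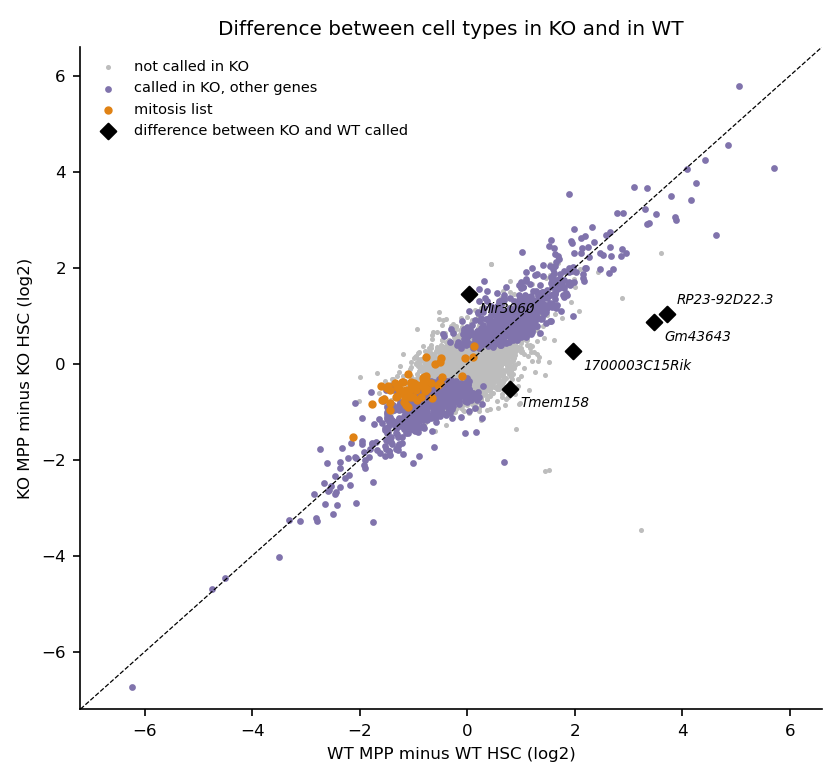
Log2 difference between MPPs and HSCs in WT (x axis) and in KO (y axis) for genes tested in both fits, with genes called in KO in purple, the mitosis list in orange, the 5 genes called for a difference between KO and WT as black diamonds and the line of equality dashed. For mitosis genes 65 of 67 members had an interaction above 0, with medians of -1.06 in WT and -0.48 in KO. Among oxidative phosphorylation genes, not coloured here, it was 75 of 76.

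Of the 35 lists, mitosis genes had the largest median of the interaction (0.54, followed by erythroid genes at 0.52). Their median difference was -1.06 in WT and -0.48 in KO, the median of the interaction was -0.0084 over all genes, and 65 of 67 members were above 0. Of these members 31 had an unadjusted p under 0.05 and 0 were called by limma or by voom, and no test was made of the list as a whole. The mean log2(FPKM + 1) of the 67 genes ran from 3.81 to 3.85 in WT HSCs, 2.55 to 3.15 in WT MPPs, 3.75 to 4.04 in KO HSCs and 3.26 to 3.65 in KO MPPs. HSCs of both genotypes thus overlapped, and the KO MPP libraries lay above the WT MPP libraries. DNA replication genes had medians of -0.58 in WT and -0.13 in KO, with 52 of 55 members above 0 in the interaction. Their mean level ran from 3.72 to 4.17 in WT MPPs and from 4.25 to 4.41 in KO MPPs. Most members above 0 was not particular to these lists. Oxidative phosphorylation genes had 75 of 76 members above 0 in the interaction (median of the interaction 0.23). For ribosome biogenesis and MYC target genes it was 44 of 54 (0.23). Megakaryocyte genes had medians of -1.65 in WT and -1.94 in KO, MPP and lymphoid priming genes 1.27 and 1.30, and granulocyte and monocyte genes 1.41 and 1.25. Erythroid genes had medians of 0.44 in WT and 0.78 in KO, and 1 WT MPP library stood at a mean level of 3.17 against up to 5.14 in its group.

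**Figure D5:**
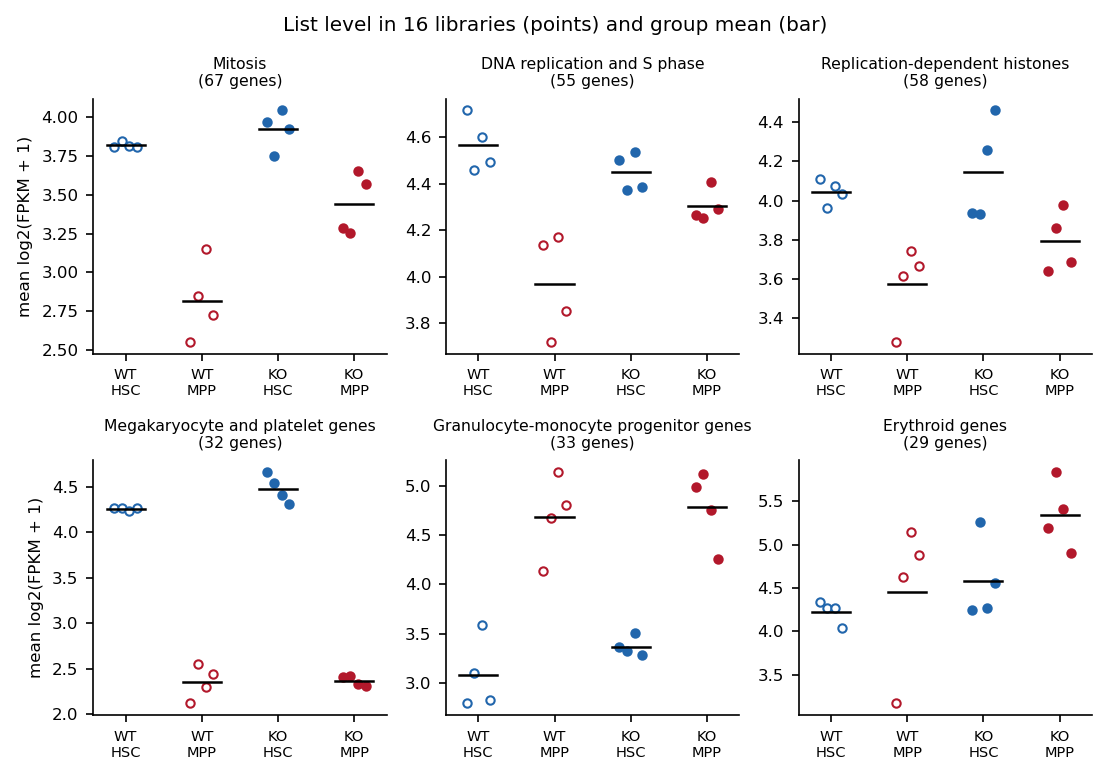
Mean log2(FPKM + 1) of 6 gene lists (y axis, its own range in each panel) in the 16 libraries of the first cohort, by genotype and cell type (x axis), with HSCs in blue, MPPs in red, WT open, KO filled and the group mean as a bar. For mitosis genes the KO MPP libraries (3.26 to 3.65) lie above the WT MPP libraries (2.55 to 3.15), while the HSC groups overlap.

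The same comparison was made in KO cells of the H2B-GFP cohort, where GFP-high cells had divided less since the pulse than GFP-low cells. These libraries held 5811697 to 8935871 reads. In GFP-high cells 106 of 10821 genes (0.98%) were called, 41 higher (0.379%) and 65 lower (0.601%) in MPPs. With the replicate number as a block, 198 were called. In GFP-low cells 44 of 10702 (0.411%) were called, 13 higher (0.121%) and 31 lower (0.29%), and with the block 99. Genes were matched by symbol, so renamed genes dropped out. Of the genes higher in total KO MPPs, 589 had a value in GFP-high cells and 523 (88.8%) the same sign, and 597 had a value in GFP-low cells and 533 (89.3%) the same sign. Of those lower, it was 373 of 468 (79.7%) and 422 of 473 (89.2%). Over all genes tested in both the shares were 60.3% and 63.6%. Of the genes called there, 78 in GFP-high and 37 in GFP-low cells were called in total cells with the same sign, and 0 with the opposite sign.

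The markers of both ends were found again, with exceptions. Slamf1 in GFP-high cells stood at 7.77, 7.101 and 9.43 FPKM in the HSC libraries and 0.0877, 0.148 and 0.358 FPKM in the MPP libraries, and Cd34 at 24.8, 27.996 and 26.97 FPKM in the HSC libraries and 90.5, 106 and 90.6 FPKM in the MPP libraries. Flt3 in GFP-low cells stood at 2.46, 4.79 and 2.84 FPKM in the HSC libraries and 39.9, 31.5 and 18.6 FPKM in the MPP libraries (difference 2.80, limma adjusted p = 0.00695), and Dntt at 1.31, 1.55 and 5.13 FPKM in the HSC libraries and 118, 42.5 and 28.5 FPKM in the MPP libraries. In all 4 cases the groups did not overlap, but Slamf1 passed the filter through HSCs alone, which fixed its direction. Pf4 did not follow in GFP-high cells, at 46.3, 77.2 and 32.1 FPKM in the HSC libraries and 31.4, 69.98 and 54.1 FPKM in the MPP libraries, a difference of 0.02 (limma adjusted p = 0.995). In GFP-low cells Pf4 was lower in MPPs, at 328, 211 and 292 FPKM in the HSC libraries and 52.4, 29.1 and 13.1 FPKM in the MPP libraries (difference -3.27, limma adjusted p = 0.015). The difference between the GFP classes was not tested. Megakaryocyte genes had medians of -0.64 in GFP-high cells, with 7 of 25 tested lower, and -1.03 in GFP-low cells, with 7 of 27 lower. Mpo was not called in either class, with 148, 63.9 and 77.4 FPKM in the HSC libraries and 111, 163 and 359 FPKM in the MPP libraries in GFP-high cells and 49.98, 138 and 425 FPKM in the HSC libraries and 483, 58.8 and 86.4 FPKM in the MPP libraries in GFP-low cells, and the groups overlapped in both. Granulocyte and monocyte genes had a median of 0.61 in GFP-high cells, with 1 of 32 tested higher and 0 lower. In GFP-low cells their median was 0, with 0 of 32 higher and 0 lower. Erythroid genes had medians of -0.06 in GFP-high cells (0 of 27 higher, 1 lower) and 0.15 in GFP-low cells (0 of 29 higher, 0 lower). MPP and lymphoid priming genes had medians of 0.65, with 8 of 21 higher, and 0.60, with 3 of 22 higher. Mitosis genes had medians of 0.22 in GFP-high and 0.02 in GFP-low cells.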

How the data were processed

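SMART-Seq2 libraries of polyA RNA were made with Nextera XT, per the labels' protocols. The authors deposited FPKM per gene, in one table for HSCs and one for MPPs. STAR, DESeq2, HOMER and mm10 are named in the submitters' processing notes, without roles or versions. Strandedness is not given in the sources used here. Whole reads were recovered from the FPKM steps for 99.96% of genes of the total-cell tables (within 0.01 of a whole number). Genes in both tables with at least 1 FPKM in 4 libraries (3 in the GFP cohort) were kept, and the libraries were rescaled by median ratios. Values as log2(FPKM + 1) were fitted with limma 3.58.1 in R 4.3.3 with an intensity trend. The 1 added to the FPKM understates changes of low genes. The fit of KO MPPs against KO HSCs in total cells was tested on simulated reads with a common spread and no deviating library. The interaction and the GFP fits were not. The replicates are biological per the series' design text, and p-values measure the spread between them. Deviations of same-numbered libraries correlated at r = 0.157, 0.319 and 0.262 in GFP-high cells and -0.042, 0.248 and 0.124 in GFP-low cells. In total cells r was -0.008, 0.179, 0.05 and -0.202. Libraries of different numbers were not compared in the GFP cohort, so whether the number pairs its libraries was not settled. Blocked counts are therefore printed beside unblocked ones. Genes were named as the 10 largest non-overlapping differences per direction at a mean log2 of 3 or more, the 3 called members of smallest adjusted p per list and direction (or, with none called, the 2 of highest mean), the called interactions, the markers and Hira, and genes of one table. Others were picked after their values were seen, Elane, Ctsg, Irf8, Klf1, Meis1, Gp5, Gp1ba, Kif11, Ccnf and Cdk1 among them. Some genes that the rule names are not reported here. Members and lists were chosen with earlier results of these data known. Alternatives covered pseudocount, filter, scaling, block, voom on recovered reads, a joint fit and leaving out each library.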

Additional observations from a re-analysis of the deposited data

Results flagged for a closer look

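Among groups of 4 libraries, 1 library lay far from the other 3 by Dixon's 95% criterion in 18 of 328 groups examined. Chance gives about 5%. In KO MPPs the library standing apart was KO MPP 4 in 8 cases. It was the highest for Dntt (120 FPKM), Flt3 (43.2 FPKM), Cd34 (121 FPKM), Esam (21.5 FPKM) and Meis1 (20.2 FPKM). It was the lowest for Fcnb (5.34 FPKM), Tgfb1 (1.91 FPKM) and Hist1h2ae (42.7 FPKM).

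In KO MPP 3 the values of Tap2 (23.999 FPKM) and Gp1bb (0.254 FPKM) stood apart. In KO HSCs the values that stood apart were Cd9 (159 FPKM), Runx2 (8.96 FPKM) and Trp53inp1 (5.63 FPKM) in KO HSC 4, Ctsg (38.3 FPKM), Ighv1-76 (0.502 FPKM) and Itgb3 (17.5 FPKM) in KO HSC 3, Padi4 (8.82 FPKM) in KO HSC 2, and the summed mast cell list in KO HSC 1 (105 FPKM).

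By limma's interaction, the difference between MPPs and HSCs was smaller in KO than in WT for 1700003C15Rik (-1.71), Gm43643 (-2.62) and RP23-92D22.3 (-2.68). For 1700003C15Rik the filter may have fixed this direction. The difference had opposite signs in the genotypes for Tmem158 (interaction -1.31), though the KO difference was not called (-0.52, limma adjusted p = 0.0574). The difference was larger in KO for Mir3060 (1.42).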

How the results depend on the processing

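Calls in total KO cells were 1009 to 1508 of the genes tested under the alternatives that kept all libraries, against 1328. With 1 FPKM required in all libraries the 2-fold counts were 156 higher and 101 lower, and voom gave 313 lower by 2-fold. Leaving out each library in turn gave 839 to 1835 calls, 479 to 915 higher and 334 to 920 lower, the lowest without KO HSC 1 and the highest without KO MPP 4. With the replicate block 1053 were called in total cells. Deviations of same-numbered libraries correlated there at r = -0.202 to 0.179, and those of different numbers at -0.208 to 0.236. Whether the numbers pair the libraries was not settled. Genes near 0 changed sign. Cox8a was -0.01 rescaled to one FPKM total, and -0.09 to 0.23 leaving out libraries. Under the same omissions Robo4 was -0.04 to 0.13, Fgd5 -0.2 to 0.07, Atp5l -0.02 to 0.31 (called without KO MPP 4, adjusted p = 0.0423), and Hira -0.04 to 0.14. Of 142 named genes called, 108 were called under each of the 11 to 17 alternatives that tested them. Ending in 4 or more were the calls of Asf1b, Camp, Ccnd1, Cdc6, Cdkn1a, Ctsl, Dek, Egr1, Foxo3, Gadd45a, Gfi1b, Hlf, Ifi47, Lgmn, Ltb, Map1lc3a, Pdk3, Pfkp, Psmb8, Tap2, Tk1 and Zfp36. Fewer ended those of Elane and Gata1 (joint fit), Igf2r (block), Meis1 and Sesn1 (one FPKM total), H2-Q7 and Padi4 (one FPKM total, single libraries), Col1a2 (pseudocount, KO MPP 3), Fas (KO HSC 1), Pdk1, Pgam1 and Slc40a1 (single libraries). The cause was not tested.

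For the difference between KO and WT (5 called, 1 above 0 and 4 below 0), a pseudocount of 0.1 gave 1 and 0 below 0, and one FPKM total gave 2, with 0 above 0 and 2 below 0. The stricter filter, the replicate block and voom gave 0 on either side, with 906, 1329 and 1179 genes at an unadjusted p under 0.05. Leaving out libraries gave 0 to 16, 0 to 12 above 0 and 0 to 5 below 0. It was 0 without WT HSC 2, WT MPP 2 or WT MPP 4 and 16 without WT MPP 3.

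In GFP-high cells no filter gave 33 (8 higher, 25 lower), the replicate block 198 (84 and 114), and leaving out libraries 12 to 95 (5 to 35 higher, 7 to 60 lower), the lowest without HSC 1. In GFP-low cells no filter gave 14 (4 and 10), one FPKM total 22 higher, the replicate block 99 (46 and 53), and leaving out libraries 5 to 100 (1 to 51 higher, 2 to 49 lower), the lowest without HSC 1 and the highest without HSC 3. Counts there rest on 3 libraries a group.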
